A study of Mus musculus with 6 samples.

Results

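The proteases of mast cells and Hdc, the enzyme that makes histamine, were examined in mouse proximal and distal colon. The set held 8 genes, namely Mcpt1, Mcpt2, Mcpt4, Cma1, Cpa3, Tpsb2, Tpsab1 and Hdc, out of 18193 genes measured. Each gene was represented by the probe set annotated to it alone, and where there was more than 1 by the one with the highest mean over the 6 arrays. All 8 had such a probe set. The samples were total RNA of large intestine from untreated female C57BL/6J mice, an inbred strain, with no transgene or treatment in any group. There were 3 libraries labelled proximal colon and 3 labelled distal colon, each hybridised to 1 array, and 3 animals gave both regions. The labels do not give the age of the animals. Values are log2 expression, so a difference of 1 is a 2-fold difference in signal.

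Mast cells are tissue-resident granulated cells that bind IgE and release histamine and proteases. In the mouse gut, mucosal mast cells lie in the epithelium and lamina propria and store the chymases encoded by Mcpt1 and Mcpt2. Connective tissue mast cells lie in the submucosa, muscle and serosa and store the chymases of Mcpt4 and Cma1, the carboxypeptidase of Cpa3 and tryptases. In whole tissue, fewer cells of a type and less RNA per cell cannot be told apart.

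The chymase genes Cma1, Mcpt1, Mcpt2 and Mcpt4 lie in that order in 1 stretch of chromosome 14 that ends at Gzmb, a granzyme gene of cytotoxic lymphocytes. The bases before the start sites of Mcpt1, Mcpt4 and Cma1 are shown because these neighbours had different values across the libraries. RefSeq's promoter table (GRCm38.p6) held 5 of the 8 genes, and Mcpt2, Tpsb2 and Tpsab1 were not among them. Each line gives the 250 bases before the start site, with every GATA core, the letters GATAA, and every TATA box, the letters TATAAA, in capitals on either strand. Mcpt1 is from chr14:56017714-56017963, plus strand. Mcpt4 is from chr14:56062311-56062560, minus strand. Cma1 is from chr14:55944676-55944925, minus strand.
Mcpt1: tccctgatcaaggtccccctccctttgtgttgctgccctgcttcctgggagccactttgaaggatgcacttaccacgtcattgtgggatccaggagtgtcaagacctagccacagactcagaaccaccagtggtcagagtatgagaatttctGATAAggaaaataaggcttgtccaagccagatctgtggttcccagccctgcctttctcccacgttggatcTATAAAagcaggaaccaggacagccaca
Mcpt4: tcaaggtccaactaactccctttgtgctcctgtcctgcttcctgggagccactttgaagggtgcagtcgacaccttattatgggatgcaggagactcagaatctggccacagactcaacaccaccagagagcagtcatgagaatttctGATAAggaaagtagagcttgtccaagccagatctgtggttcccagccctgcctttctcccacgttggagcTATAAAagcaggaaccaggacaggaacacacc
Cma1: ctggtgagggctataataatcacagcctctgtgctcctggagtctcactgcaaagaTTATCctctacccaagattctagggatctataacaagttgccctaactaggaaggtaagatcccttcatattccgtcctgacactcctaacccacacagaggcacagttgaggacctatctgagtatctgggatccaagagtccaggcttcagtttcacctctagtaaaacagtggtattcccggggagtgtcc

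The upstream bases of Mcpt1 and Mcpt4 were alike, with 208 identical bases in 254 aligned columns (81.9%). Cma1 shared 52.7% of aligned columns with Mcpt1, near the 47.0% and 49.3% that Cpa3 and Hdc, which lie on other chromosomes, shared with Mcpt1. Mcpt1 had 1 GATA core, 98 to 94 bases before the start, and 1 TATA box, 28 to 23 bases before it. Mcpt4 had the same pair, at 102 to 98 and 32 to 27 bases before its start. In Cma1 the single GATA core lay on the opposite strand, 194 to 190 bases before the start, and the TATA box letters were not found. Of all 32851 such windows, 22.6% held a GATA core and 12.4% held a TATA box on either strand, and the motifs did not overlap in these 3 windows. The matches describe letters only.

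In 1 library of each label the regional genes did not match the label. Hoxb13, a marker of posterior gut, was at 13.39, 6.53 and 6.48 in proximal 1, 2 and 3 and at 13.78, 13.29 and 6.65 in distal 1, 2 and 3. Nts, the gene of the gut peptide neurotensin, ran the other way, with 7.32, 12.45 and 12.65 in proximal 1, 2 and 3 and 5.88, 5.45 and 12.19 in distal 1, 2 and 3. The 8 genes are therefore compared in all 6 libraries as labelled and in 4 libraries, without proximal 1 and distal 3. Other genes named as passing did so in the 4 libraries, and as labelled 0 genes of any list passed. In the 4 libraries 19.2% of all genes passed in either direction, the share to set beside the count of each list. Array medians were 7.90 to 8.02, and precision is limited by how few arrays there were. The markers Epcam (14.14 to 14.31) and Myh11 (13.27 to 13.85), of epithelium and smooth muscle, were high in every library.

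Mcpt1 and Mcpt2 had the widest spread of the 8 genes. Mcpt1, the chymase of mucosal mast cells that is shed during worm infection, measured 5.82, 6.90 and 8.50 in proximal 1, 2 and 3 and 4.61, 5.98 and 8.75 in distal 1, 2 and 3. Its highest values were in the libraries labelled distal 3 and proximal 3, and the groups overlapped. Mcpt2, whose product is a second protease of mucosal mast cells, measured 6.11, 7.06 and 8.05 in the proximal and 4.65, 5.94 and 8.38 in the distal libraries. It followed the same order of libraries at the top and bottom, with distal 3 highest and distal 1 lowest, and only proximal 1 and distal 2 changed places between both genes. From lowest to highest library the signal spanned 17.6-fold for Mcpt1 and 13.3-fold for Mcpt2. The SD over the 6 libraries was 1.62 for Mcpt1 and 1.41 for Mcpt2, larger than for 99.3% and 99.0% of all genes.

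As labelled, the means of these mucosal chymase genes did not differ beyond the spread between libraries. The mean of Mcpt1 was 6.45 ± 2.11 in distal and 7.07 ± 1.35 in proximal libraries (SD, n = 3 each). The difference, distal minus proximal here and throughout, was -0.63 (95% confidence interval -3.41 to 2.15, limma adjusted p = 0.886). For Mcpt2 the means were 6.32 ± 1.89 and 7.07 ± 0.97 (SD, n = 3 each), a difference of -0.75 (-3.12 to 1.62, limma adjusted p = 0.850). In the 4 libraries Mcpt2 was lower in distal colon by 2.26 on the log2 scale or 4.79-fold, with 5.30 ± 0.91 against 7.56 ± 0.70 (SD, n = 2 each, SE of the difference 0.51, limma adjusted p = 0.0365). Mcpt1 had a similar difference of -2.41 (SE 0.65) that did not pass (limma adjusted p = 0.0587). The distal pair lay below 6.54, the lower quartile of gene values, under which array background may mask a lower level. The background level is not known and each group held 2 libraries, so the sizes of both differences are uncertain. The Mcpt2 call did not hold without any 1 of the 4 libraries, with adjusted p from 0.0942 to 0.289.

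Among 1539 genes with an SD of at least 0.5 over the 6 libraries, Mcpt2 was the gene most like Mcpt1, with r = 0.991 over 6 libraries. Next came Lancl3 (r = 0.981), Apol6 (0.977), Fbln7 (0.973) and Il1f8 (0.973). The libraries come from 3 animals and fall into sets by region, so these coefficients only describe a likeness of pattern. Mcpt1 and Mcpt2 are closely related genes, and whether their probe sets share signal was not tested.

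Mcpt4 and Cma1, chymase genes of connective tissue mast cells, differed in level pattern. Mcpt4, whose product is held to be the counterpart of human chymase, stayed between 3.99 and 4.55 in all 6 libraries, below the lower quartile. It measured 4.26, 4.47 and 4.55 in the proximal and 4.37, 3.99 and 4.52 in the distal libraries. Its difference was -0.13 as labelled (-0.54 to 0.27, limma adjusted p = 0.848) and -0.33 in the 4 libraries (SE 0.16, limma adjusted p = 0.205).

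Cma1, whose product is stored in granules together with carboxypeptidase A3, ran opposite to Mcpt1 and Mcpt2 (r = -0.893 and -0.880 over 6 libraries). Its r was also negative with Cpa3 (-0.783), Mcpt4 (-0.654), Tpsb2 (-0.549) and Tpsab1 (-0.470), and was 0.620 with Hdc. Of these, Cpa3, Mcpt4 and Tpsab1 were near the bottom of the scale. Cma1 measured 8.24, 6.11 and 5.93 in proximal 1, 2 and 3 and 7.92, 7.36 and 5.78 in distal 1, 2 and 3. The high libraries, proximal 1, distal 1 and distal 2, were those with Hoxb13 above 13, and the low libraries were those with Hoxb13 below 7. The span from lowest to highest was 5.50-fold, and the SD of 1.08 was larger than for 98.2% of all genes. As labelled, the means were 7.02 ± 1.11 in distal and 6.76 ± 1.28 in proximal libraries (SD, n = 3 each), a difference of 0.26 (-1.63 to 2.15, limma adjusted p = 0.934). In the 4 libraries Cma1 was higher in distal colon by 1.62 or 3.07-fold, with 7.64 ± 0.40 against 6.02 ± 0.13 (SD, n = 2 each, SE of the difference 0.21, limma adjusted p = 0.00795). The proximal pair lay below 6.54, so the size of this difference too is uncertain. The call was kept without distal 1 (1.34, limma adjusted p = 0.0492) and lost without proximal 2 (0.122), proximal 3 (0.153) or distal 2 (0.0523).

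Genes chosen for likeness to Cma1 after its values were seen were Tmem132c (r = 0.994 over 6 libraries), Gatm (0.993), Fbln1 (0.993), Slc16a12 (0.991) and Mcc (0.990). Fbln1 encodes the matrix protein fibulin 1 and measured 11.08, 9.84 and 9.91 in proximal 1, 2 and 3 and 11.05, 10.64 and 9.75 in distal 1, 2 and 3. It was in the fibroblast list, where it was the gene that passed in the 4 libraries (0.97, SE 0.16, limma adjusted p = 0.0170).

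**Figure D1:**
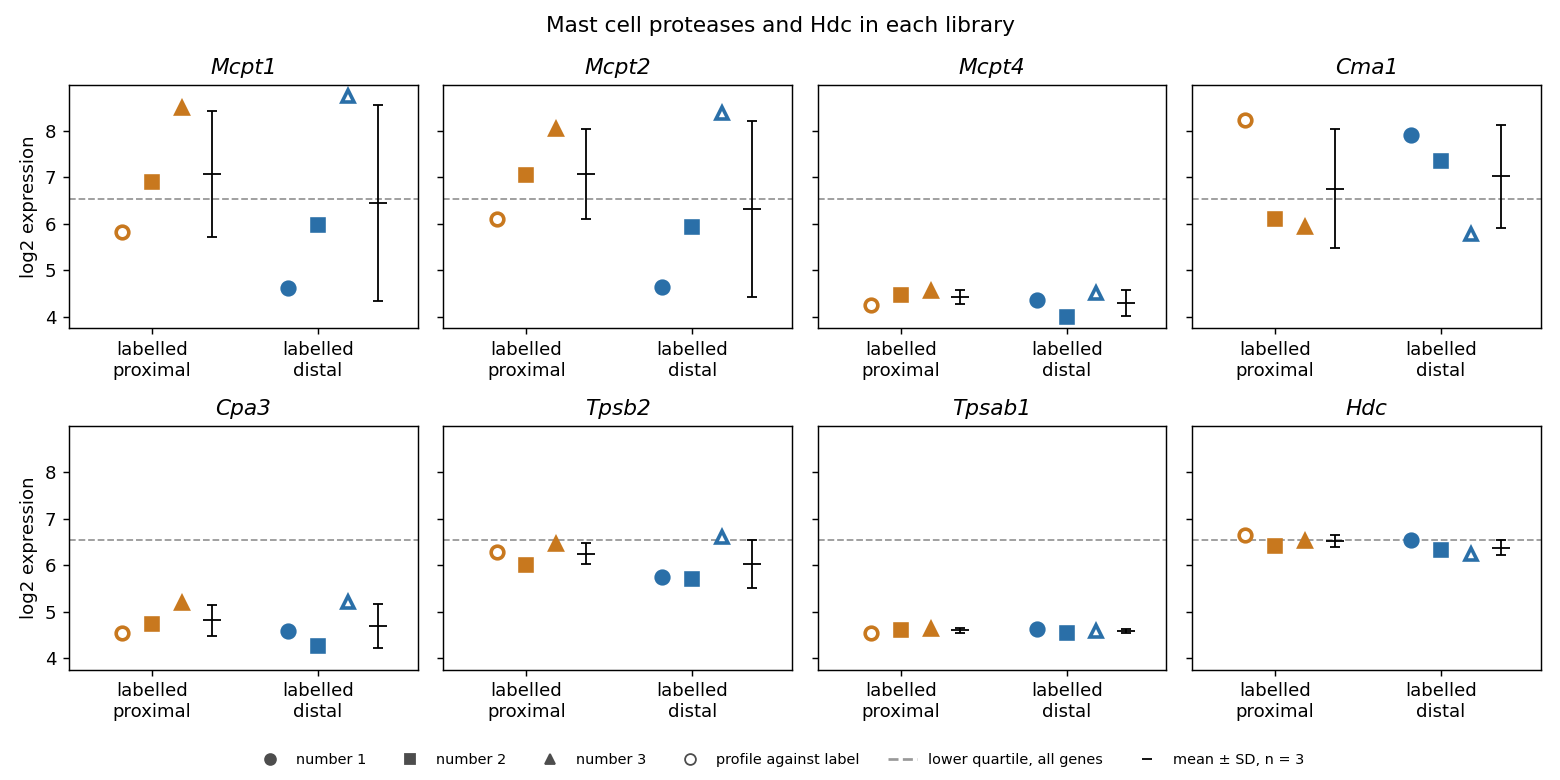
Log2 expression of the 8 genes (vertical axis) in each library, by labelled region, with marker shape for the library number, open markers for proximal 1 and distal 3, and the mean ± SD of 3 libraries beside the points. Mcpt1 and Mcpt2 are highest in distal 3 and proximal 3, Cma1 is highest in proximal 1 and distal 1, and Mcpt4, Cpa3 and Tpsab1 lie below the dashed line at the lower quartile (6.54) in every library.

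Cpa3 encodes the carboxypeptidase that mast cells store with heparin. It measured 4.53, 4.73 and 5.18 in the proximal and 4.59, 4.26 and 5.20 in the distal libraries. All 6 values lay below the lower quartile of gene values, and the 2 highest were again in distal 3 and proximal 3. The difference was -0.13 as labelled (-0.81 to 0.55, limma adjusted p = 0.903) and -0.53 in the 4 libraries (SE 0.20, limma adjusted p = 0.127).

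Tpsb2 encodes the tryptase of mouse mast cell granules, a protease that is active as a tetramer. It measured 6.29, 6.00 and 6.45 in the proximal and 5.75, 5.70 and 6.61 in the distal libraries. Distal 3 and proximal 3 were highest here too, and a second probe set, with 5.70, 5.63 and 5.74 against 5.43, 5.44 and 5.94, also had its highest values in these libraries. The difference was -0.23 as labelled (-0.88 to 0.43, limma adjusted p = 0.845) and -0.50 in the 4 libraries (SE 0.17, limma adjusted p = 0.104).

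Tpsab1, which in RefSeq's annotation of the C57BL/6J genome is a transcribed pseudogene, hardly varied. It measured 4.54, 4.61 and 4.63 in the proximal and 4.62, 4.53 and 4.58 in the distal libraries, a span of 0.10. Its SD of 0.04 was larger than for only 0.7% of all genes. The difference was -0.02 as labelled (-0.24 to 0.20, limma adjusted p = 0.964) and -0.05 in the 4 libraries (-0.31 to 0.22, limma adjusted p = 0.806), and with median centring of the arrays it turned to 0.05. Genes most like Tpsab1 among 1540 candidates were Dio1 (r = 0.935 over 6 libraries), Ffar4 (0.861), Slc30a10 (0.856), Decr2 (0.850) and Drc3 (0.837), a likeness that rests on this span.

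Hdc measured 6.65, 6.40 and 6.52 in the proximal and 6.55, 6.32 and 6.24 in the distal libraries. The groups overlapped, with proximal 1 highest and distal 3 lowest. A second probe set gave 6.27, 6.43 and 6.08 in the proximal and 5.91, 6.05 and 5.98 in the distal libraries. There all distal values lay below all proximal ones, and 7.33% of all genes had such a gap in either direction. The difference of the first probe set was -0.15 as labelled (-0.46 to 0.15, limma adjusted p = 0.824) and -0.03 in the 4 libraries (-0.35 to 0.30, limma adjusted p = 0.918). For the mean of both probe sets it was -0.22 as labelled (SE 0.09, limma adjusted p = 0.821).

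**Figure D2:**
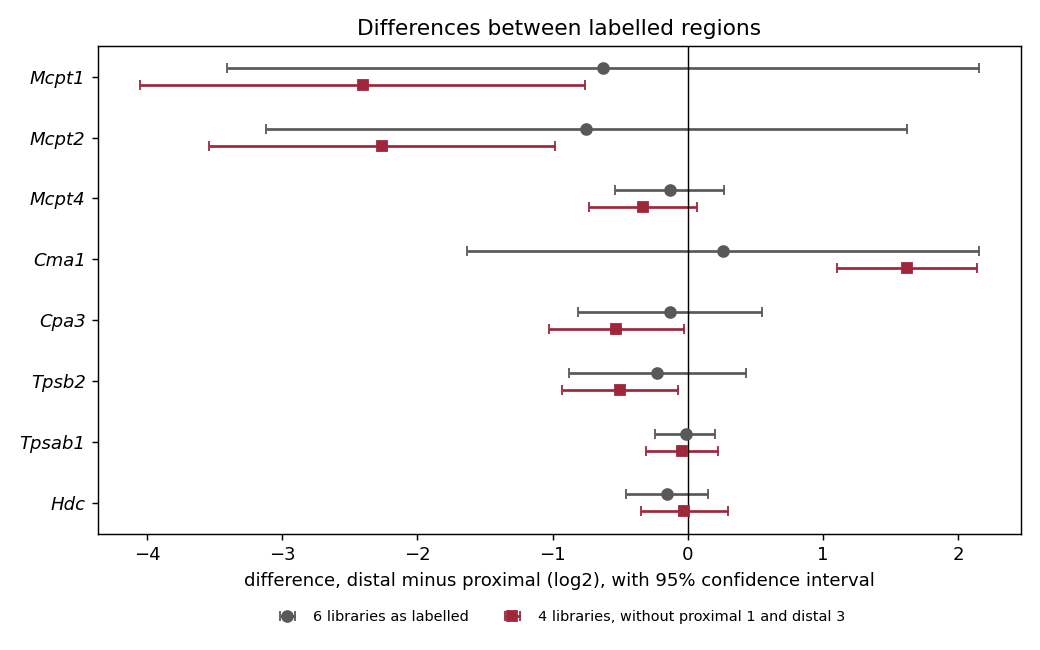
Difference between libraries labelled distal and proximal on the log2 scale (horizontal axis), with the 95% confidence interval of the limma fit, for all 6 libraries as labelled and for 4 libraries without proximal 1 and distal 3. Intervals are not adjusted for the number of genes tested. As labelled all 8 intervals span 0. In the 4 libraries Mcpt2 (-2.26) and Cma1 (1.62) passed, on opposite sides of 0. The intervals of Mcpt1, Cpa3 and Tpsb2 did not span 0 there either, but these genes did not pass.

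By limma, 0 of the 8 genes passed as labelled, with 0 also at an unadjusted p of 0.05, beside 0 of all 18193 genes (0%, and 554 or 3.05% at an unadjusted p of 0.05). By the probe set chosen for each gene, the labelled groups did not overlap for 0 of the 8 genes, beside 7.33% of all genes. The median difference was -0.14 over the 8 genes and -0.020 over all genes. With the 4 libraries 2 of the 8 passed, Cma1 higher and Mcpt2 lower in distal colon, beside 19.2% of all genes in either direction, 7.71% higher and 11.5% lower. A count of 2 in 8 is near that background share, so this count says nothing particular about mast cell genes. At an unadjusted p of 0.05 (limma), 5 of the 8 passed in the 4 libraries, beside 35% of all genes. These were Cma1, higher in distal colon, and Mcpt1, Mcpt2, Cpa3 and Tpsb2, lower in it. The median difference in the 4 libraries was -0.41 over the 8 genes and -0.045 over all genes. The pair of libraries was left out after their profiles were seen, so these p-values describe the 4 libraries and overstate the evidence.

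The IgE receptor and other mast cell genes were measured beside the proteases. Fcer1a, the IgE-binding chain, measured 3.71, 4.27 and 4.47 in the proximal and 3.77, 3.77 and 4.54 in the distal libraries. Ms4a2, the beta chain of the receptor, stayed between 4.21 and 4.69. Both lay below the lower quartile of gene values in all libraries, as did Cpa3, so these defining genes of mast cells were near the bottom of the scale in all 6 libraries. Kit, the receptor for stem cell factor, measured 10.53 to 11.22, but it is also made by the interstitial cells of Cajal in gut muscle.

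Of 12 measured receptors and regulators of mast cells, 0 passed by limma as labelled (1 at an unadjusted p of 0.05). In the 4 libraries 2 of the 12 passed, near the 19.2% of all genes that did so. Among the 4 libraries, 2 were lower in distal colon, Fcer1a (-0.60, SE 0.12, limma adjusted p = 0.0268) and Fcer1g, the signalling chain shared with macrophages (-0.84, SE 0.15, limma adjusted p = 0.0203), and 10 did not pass. Fcer1a had its 3 highest values in proximal 2, proximal 3 and distal 3, the libraries with low Hoxb13. All its values were near the bottom of the scale, so the size of its difference is uncertain. Fcer1g was 9.82, 9.83 and 10.18 in the proximal and 9.12, 9.21 and 9.69 in the distal libraries. The macrophage list moved in the same direction, with a mean level of 10.13 to 10.47 in proximal and 9.66 to 10.12 in distal libraries and 4 of 10 genes lower in the 4 libraries, and its part in the Fcer1g values was not tested.

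Of 4 other granule proteases measured, 1 passed in the 4 libraries, the granzyme gene Gzmb, which mast cells and cytotoxic lymphocytes both can express. Gzmb measured 6.47, 8.74 and 9.35 in the proximal and 5.55, 6.29 and 8.29 in the distal libraries. As in Mcpt2, distal 1 was lowest and proximal 2, proximal 3 and distal 3 were highest. Its difference was -1.48 as labelled (SE 0.96, limma adjusted p = 0.824) and -3.12 in the 4 libraries (SE 0.31, limma adjusted p = 0.00396). Mcpt8 (5.96 to 6.52), a basophil protease gene, and Ctsg (4.07 to 4.67), the cathepsin G gene, lay between Mcpt4 and Gzmb on the chromosome and had values below the lower quartile in all libraries. The tryptase gene Tpsg1 was the brightest of the 4, at 9.52 to 10.72, and did not pass in the 4 libraries (0.03, SE 0.16, limma adjusted p = 0.920).

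Most T and innate lymphocyte markers moved with Mcpt1 and Mcpt2. The mean level of 9 T and innate lymphocyte markers was 8.62, 9.56 and 9.89 in proximal 1, 2 and 3 and 7.97, 8.37 and 9.45 in distal 1, 2 and 3. As in Mcpt1, the lowest library was distal 1 and the 3 highest were proximal 2, proximal 3 and distal 3. By the fit of 4 libraries, 6 of the 9 were lower in distal colon and 3, Itgae, Cd2 and Thy1, did not pass. Among those that fell were Cd3g (-2.39, SE 0.14, limma adjusted p = 0.000954) and the granzyme Gzma (-3.66, SE 0.51, limma adjusted p = 0.0103). Cd2 was highest in distal 1 (8.59), with a difference of 0.13 (SE 0.16, limma adjusted p = 0.627). Thy1 was at 9.32 in distal 1, above its 8.91 and 9.19 in distal 2 and 3. None of the 9 was at the bottom of the scale in any library, with Cd3e, the brightest, at 9.68 to 11.08. Their part in the Mcpt1 and Mcpt2 values was not tested.

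Markers of B cells and 3 of 4 markers of interstitial cells of Cajal moved with Cma1, and pancreatic markers did so in part. The mean level of 6 B cell markers was 7.94, 6.66 and 6.66 in proximal 1, 2 and 3 and 8.45, 8.52 and 6.12 in distal 1, 2 and 3, and 6 of 6 were higher in distal colon in the 4 libraries. For 4 markers of interstitial cells of Cajal, the pacemaker cells of gut muscle, it was 12.01, 10.05 and 10.07 in the proximal and 11.85, 11.98 and 10.20 in the distal libraries. Of these 3 were higher in distal colon in the 4 libraries, Ano1 (1.70, SE 0.11, limma adjusted p = 0.00114), Gpr20 (0.75, SE 0.14, limma adjusted p = 0.0246) and Thbs4 (4.95, SE 0.12, limma adjusted p = 0.000109). Kit did not pass (0.03, SE 0.19, limma adjusted p = 0.944) and was lowest in distal 1 (10.53), where Cma1 was high. Thbs4, at 7.73 to 12.95, had the widest range of the 4 and weighs most in their mean level. For 8 fibroblast markers the mean level was 11.54, 11.09 and 11.22 in the proximal and 11.59, 11.26 and 11.00 in the distal libraries, and 1 of 8 passed, Fbln1, the gene already named for its likeness to Cma1. The mean level of 9 markers of pancreatic acinar cells was 12.52 in both proximal 1 and distal 1 and 6.68 to 6.90 in the other libraries. In distal 2 the mean level of the pancreatic list was low (6.70). Cma1 was at 7.36 there, above the 5.78 to 6.11 of proximal 2, proximal 3 and distal 3. Of the 9 pancreatic markers, 1 was higher in distal colon in the 4 libraries, Cela1 (1.74, SE 0.22, limma adjusted p = 0.00759), and 8 did not pass. Cela1 was at 13.43 in distal 2, above its values in proximal 2, proximal 3 and distal 3. Its highest values were in proximal 1, distal 1 and distal 2, the high libraries of Cma1. The part of these cell types in the Cma1 values was not tested.

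**Figure D3:**
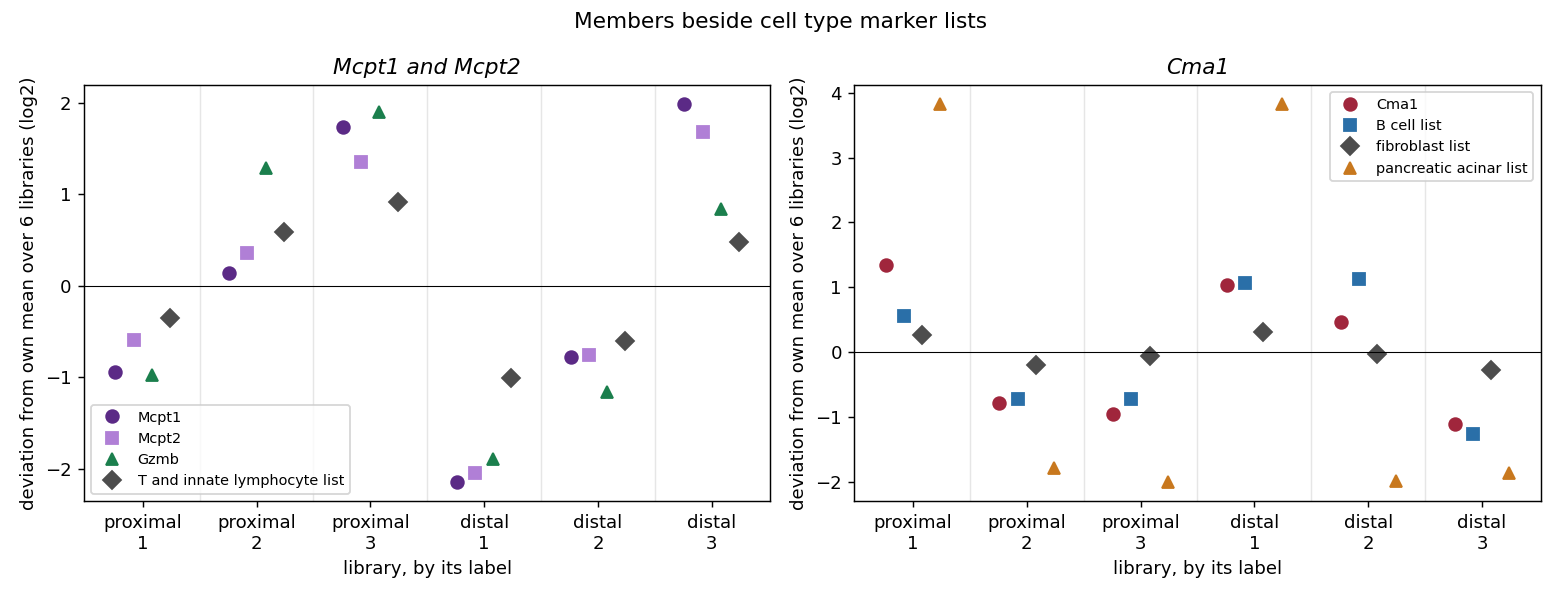
Deviation from the own mean over 6 libraries on the log2 scale (vertical axis) in each library (horizontal axis), for Mcpt1, Mcpt2, Gzmb and the mean of 9 T and innate lymphocyte markers on the left, and for Cma1 and the means of the B cell, fibroblast and pancreatic acinar lists on the right. Proximal 3 and distal 3 are above 0 and distal 1 is lowest in all series on the left, and Cma1 is above 0 in proximal 1, distal 1 and distal 2.

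Genes that build and process the granule were not called in any direction. Of 9 measured genes of this list, which includes Srgn, the proteoglycan that holds the proteases, and Ctsc, which activates chymases, 0 passed in the 4 libraries or as labelled (limma, 4 and 2 at an unadjusted p of 0.05, beside 35% and 3.05% of all genes). The labelled groups did not overlap for 3 of the 9, beside 7.33% of all genes. Srgn and Ctsc were lower in the distal libraries, and Hs6st1 was higher (12.04 to 12.15 against 11.87 to 11.90). Srgn measured 11.36, 11.08 and 11.18 in the proximal and 10.86, 10.61 and 10.92 in the distal libraries. Its difference as labelled was -0.41 (SE 0.13, limma adjusted p = 0.824), and in the 4 libraries it was -0.40 (SE 0.13, limma adjusted p = 0.0960). Many other blood cells make Srgn, so it does not mark mast cells alone.

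Among 9 genes of amine and eicosanoid synthesis, 1 was higher and 1 was lower in distal colon in the 4 libraries, and 7 did not pass. This count is near the 19.2% of all genes that passed there in either direction. Hpgds, a synthase of prostaglandin D2, was higher (0.98, SE 0.14, limma adjusted p = 0.0116), and Ltc4s, which makes leukotriene C4, was lower (-0.66, SE 0.14, limma adjusted p = 0.0332). Hpgds measured 8.89, 8.12 and 8.04 in the proximal and 8.90, 9.22 and 8.26 in the distal libraries, with the same 3 high libraries as Cma1. Of 6 genes for histamine breakdown and receptors, 2 were lower in distal colon, namely the histamine methyltransferase Hnmt (-0.47, SE 0.12, limma adjusted p = 0.0472) and the receptor Hrh1 (-0.73, SE 0.10, limma adjusted p = 0.0107). As labelled 0 genes of either list passed (limma, 0 and 1 at an unadjusted p of 0.05).

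Of 17 measured genes of mast cell growth, differentiation and homing, 1 passed in the 4 libraries, the integrin chain Itga4, higher in distal colon (0.70, SE 0.16, limma adjusted p = 0.0385). Kitl, the stem cell factor that mast cells need, measured 11.70 to 12.03 across the libraries and did not pass. Il9 and Il13, cytokines of mast cell expansion, lay at 4.56 to 5.18 and 4.26 to 4.50, below the lower quartile in all libraries. Of 8 measured targets and inhibitors of the proteases, 1 passed, the protease inhibitor-like gene Wfdc2, higher in distal colon (1.40, SE 0.18, limma adjusted p = 0.00867). As labelled 0 genes of these lists passed (limma, 2 and 1 at an unadjusted p of 0.05).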

How the data were processed

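The deposited values were log2 expression per probe set, made by the authors with RMA in Partek 6.5, per the submitters' processing notes. The log2 scale was inferred from that note and from the lowest and highest value, 2.91 and 15.16. How background was set is not given in the sources used here. A change common to most genes is largely removed by RMA.

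Of 45101 probe sets, 64 controls were left out and 34945 had 1 gene symbol. For 34741 the symbol was renewed by gene identifier from a RefSeq table of GRCm38.p6. Distal and proximal libraries were compared over 18193 genes by limma (version 3.58.1, R 4.3.3; lmFit, eBayes, two-sided, Benjamini-Hochberg over all genes, threshold 0.05). The p-values reflect only how these libraries varied.

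The design text names 3 animals but not which numbers share one. The genes and lists were chosen with earlier results of these data known. Genes were named by rule: the 8 genes, up to 4 genes of each mast cell list past the threshold, the brightest gene of a cell type list where used, regional markers, and the 5 genes most like the members with the highest and lowest SD. Values were already known when other genes were picked to be named. The calculation was tested on simulated data. Promoter bases were read from RefSeq's table and aligned with Biopython 1.88. Alternatives were the replicate number as a block, a filter on low genes, mean and single probe sets, median centring, quantile normalization, a trended robust prior, array weights, a threshold of 0.01 and leaving out each library. The fits of 4 libraries were added after seeing the data.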

Additional observations from a re-analysis of the deposited data

How the results depend on the processing

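As labelled, 0 genes and 0 of the 8 passed under every alternative except array weights. The threshold of 0.01 could give no other result, since 0 genes passed at 0.05. Array weights called 5579 genes and 2 of the 8, Mcpt2 (-2.05, limma adjusted p = 0.0432) and Cma1 (1.50, limma adjusted p = 0.0396). The weights were 0.322, 6.72 and 1.57 in proximal 1, 2 and 3 and 2.5, 0.403 and 0.291 in distal 1, 2 and 3. They were lowest for proximal 1 and distal 3, so this fit is not separate from that of the 4 libraries. The fit with the replicate number as a block called 0 genes. In this balanced design a block cannot change a difference, so the Mcpt2 difference of -0.75 was bound to stay. The SE fell from 0.98 to 0.36 for Mcpt2 and from 1.15 to 0.30 for Mcpt1 (limma adjusted p = 0.721 for both). Deviations from the group means of same-numbered libraries correlated at 0.68, -0.45 and 0.68. These signs follow the profiles of proximal 1 and distal 3, so they cannot show whether the numbers mark animals. The filter on low genes removed all 8 genes, so it could not call any of them. In the 4 libraries 3494 genes and 2 of the 8 passed as deposited, 3455 and 2 after quantile normalization, and 3440 and 2 after median centring. With 1 of the 4 left out, the spread of the single library was taken from the other pair, and the counts were 146 genes (proximal 3 left out), 165 (proximal 2), 405 (distal 2) and 1633 (distal 1), with 0 to 1 of the 8. Signs turned for Tpsab1 with median centring (0.05, and 0.04 in the 4 libraries) and for Hdc with array weights (0.06), and in the 4 libraries with quantile normalization (0.02) and median centring (0.07). Without 1 of the 6 libraries, differences ran from -1.78 to 0.29 for Mcpt1, -1.78 to 0.09 for Mcpt2, -0.25 to 0.02 for Mcpt4, -0.19 to 1.00 for Cma1, -0.39 to 0.08 for Cpa3, -0.52 to -0.07 for Tpsb2 and -0.04 to 0.01 for Tpsab1. For Hdc they ran from -0.24 to -0.09, and in the 4 libraries from -0.14 to 0.09, with 0.03 without proximal 3. Without 1 of the 4 libraries they ran from -3.21 to -1.61 for Mcpt1, -2.91 to -1.62 for Mcpt2, -0.52 to -0.14 for Mcpt4, 1.34 to 1.90 for Cma1, -0.75 to -0.31 for Cpa3 and -0.73 to -0.28 for Tpsb2. The cause of these changes was not tested. Signal near background limits Mcpt4, Cpa3 and Tpsab1.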

Other observations

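Several other measured genes between Cma1 and Gzmb on chromosome 14 gave little signal, while Cma2 and Mcpt9 in that stretch were not analysed here. The granzyme genes Gzmc, Gzmd, Gzme, Gzmf, Gzmg and Gzmn stayed under the lower quartile of gene values (6.54) in all 6 libraries, with Gzmc at 4.32 to 5.30 and Gzmd at 2.94 to 3.16. By limma 0 of these 6 genes passed, as labelled or in the 4 libraries, with 0 in either at an unadjusted p of 0.05. The pseudogene Mcpt-ps1 measured 6.05, 6.01 and 6.27 in the proximal and 5.98, 5.61 and 6.35 in the distal libraries, again with its highest values in distal 3 and proximal 3.

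Granulocyte markers gave a mixed picture. Of 6 eosinophil markers, Siglecf, which tuft cells also express, was lower (-1.06, SE 0.14, limma adjusted p = 0.00903) and Alox15 was higher (1.24, SE 0.18, limma adjusted p = 0.0104) in distal colon in the 4 libraries, and 4 did not pass. The eosinophil granule genes Prg2 (5.24 to 6.46) and Epx (5.27 to 5.91) lay below the lower quartile of gene values in all libraries. Of 7 neutrophil markers 0 passed by limma, in the 4 libraries or as labelled (0 in either at an unadjusted p of 0.05).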
